A study of Homo sapiens with 24 samples.

Results

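The genes described here are 31 genes of cholesterol and fatty acid synthesis and its control, taken by symbol from a list, out of 60448 gene symbols in each expression table. All 31 were found in the 4 tables under their own symbol, and all 31 passed the filter on low counts in each comparison below. They fall into 8 genes from acetoacetyl-CoA to squalene, 10 from squalene to cholesterol, 5 of regulation and sterol transport, and 8 of fatty acid synthesis.

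RNA was sequenced from BPH-1 and RWPE-1, immortalized human prostate epithelial cell lines that carry SV40 and HPV18 sequences, respectively. Vector control cells (3 libraries of BPH-1 and 1 of RWPE-1) were compared with C-Raf parental cells (3 and 4), which overexpress wild-type C-Raf, and with C-Raf metastasis-derived lines (6 and 7). Vector and parental cells alike carry luciferase reporters. The metastasis-derived lines were grown out from tumors that formed in immune-deficient mice after C-Raf cells were injected into the heart, and were cultured for about a week, so cells of the mouse host may remain in them. The RWPE-1 metastasis-derived libraries are labelled lymph node (LN1A and LN1B), spine (Spine and Spine2) or bone (Bone4, Bone5 and Bone6), and the BPH-1 libraries bone or thymus. A pair of BPH-1 libraries numbered R075 has titles and treatment labels that do not name the same site, so site was not used in BPH-1. The labels do not state whether libraries of a group came from separate cultures, so p-values measure the spread between libraries, which may be technical. RWPE-1 cells grew in a serum-free keratinocyte medium with bovine pituitary extract and EGF. BPH-1 cells grew with fetal bovine serum, in DMEM by the labels and in RPMI by the methods. Cell line, medium and table therefore cannot be told apart.

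Cells make cholesterol from acetyl-CoA through mevalonate and squalene, and make fatty acids from the same precursor through malonyl-CoA. Most enzymes of both routes are transcribed under sterol regulatory element binding proteins, encoded by SREBF1 and SREBF2, which SCAP carries out of the endoplasmic reticulum when sterols are low and INSIG1 holds back when sterols are plentiful. SREBF2 is best known for the cholesterol genes and SREBF1 for the fatty acid genes. Prostate epithelium and its tumors are known for active lipid synthesis, with FASN among the best studied enzymes.

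The promoters of 4 members are shown. HMGCS1 and SCD moved in opposite directions below, and MSMO1 followed HMGCS1 most closely among the members. Of the 27 members with a promoter window, only SREBF2 matched the form of the sterol regulatory element that was searched. Sterol regulatory element binding proteins recognise this element, and forms that differ in other bases were not searched. The sequences are RefSeq promoter windows on GRCh38.p14, read 5′ to 3′ on the gene's strand and ended before the outermost start in GENCODE version 29. Capitals mark the CCAAT box or its reverse complement ATTGG, the site of NF-Y, and in SREBF2 also the match to the element, searched as TCACNCCAC with any base at N. HMGCS1 lies at chr5:43313513-43313662 (minus strand), MSMO1 at chr4:165327419-165327622 (plus), SCD at chr10:100346983-100347123 (plus) and SREBF2 at chr22:41832855-41833078 (plus).
HMGCS1: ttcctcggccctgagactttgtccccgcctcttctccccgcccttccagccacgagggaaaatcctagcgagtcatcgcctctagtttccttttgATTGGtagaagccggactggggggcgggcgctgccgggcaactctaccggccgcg
MSMO1: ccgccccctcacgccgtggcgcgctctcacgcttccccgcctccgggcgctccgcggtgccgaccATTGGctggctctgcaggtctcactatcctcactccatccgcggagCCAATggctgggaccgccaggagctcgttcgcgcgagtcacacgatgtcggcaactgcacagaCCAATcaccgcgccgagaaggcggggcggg
SCD: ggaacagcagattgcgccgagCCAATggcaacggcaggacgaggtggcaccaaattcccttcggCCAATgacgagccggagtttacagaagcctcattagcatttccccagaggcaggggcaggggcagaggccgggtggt
SREBF2: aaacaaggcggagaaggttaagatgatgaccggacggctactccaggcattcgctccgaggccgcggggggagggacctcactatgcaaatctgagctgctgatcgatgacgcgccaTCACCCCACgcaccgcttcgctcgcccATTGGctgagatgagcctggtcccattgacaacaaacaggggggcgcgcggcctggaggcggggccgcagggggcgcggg

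In the 250 bases before the RefSeq start, read on both strands, CCAAT was found in 20 of the 27 members with an entry (74.1%), against 37% of 27305 genes. HMGCS1 and SCD each held 2 CCAAT boxes in that window, and MSMO1 held 4. TCACNCCAC was found in SREBF2, at 133 bases before its start, and in no other member, and 1.09% of genes held it. The E-box CACGTG was found in INSIG1, SC5D and SCAP (11.1% of members, 7.73% of genes). No window was used for ACAT2, FDFT1, SQLE and FASN.

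Levels are protein-coding counts scaled to a fixed library total (CPM) and scaled further between libraries by TMM, and are compared between libraries for the same gene. The 6 epithelial markers summed to 1624 to 7944 CPM over the libraries, while the luminal markers KLK2 and MSMB were at 0 counts in all RWPE-1 libraries. Total counts were 33615679 to 43037870 in the RWPE-1 libraries and 25997814 to 33551459 in BPH-1 vector and C-Raf parental cells, of which 97.2% to 98.2% were protein-coding. The 6 BPH-1 metastasis-derived libraries stood apart. Of these, 3 (bone R071, R074 and R075) held 111187 to 465015 protein-coding counts and 93.3% to 97.5% of reads on RN7SL1, a noncoding signal recognition particle RNA. The 31 genes together held 220, 152 and 26 counts there (9, 5 and 18 members at 0), and 3 counts, the limit that a count of 0 allows, are 6.45 to 27.0 CPM, so these 3 libraries were left out of all tests except where stated. The other 3 held 20574528 to 28136924 protein-coding counts, and RN7SL1 took 13.1% (bone R069), 30.3% (bone R072) and 4.60% (thymus R075) of their reads (95% Wilson intervals 13.09% to 13.12%, 30.27% to 30.29% and 4.593% to 4.608%, counting error only). Protein-coding counts made up 70.01%, 38.93% and 83.79% of their totals in the same order, so RN7SL1 was not the whole of the remainder. RN7SL1 was at most 0.00932% elsewhere.

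**Figure D1:**
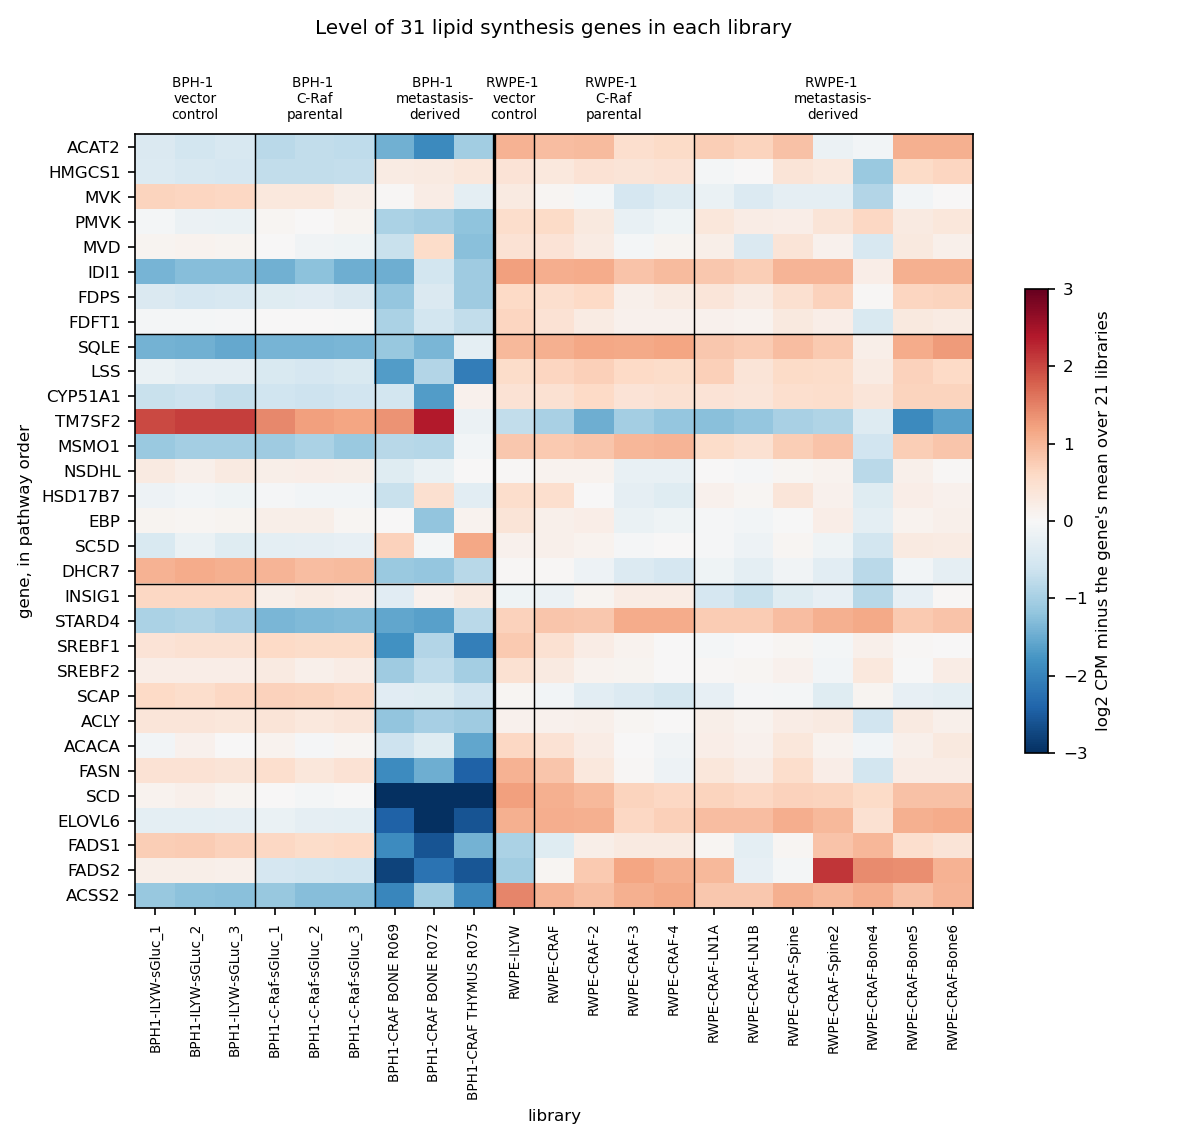
Levels of the 31 genes in 21 libraries, as log2 CPM minus the gene's mean over those libraries; rows run along the pathway with lines between the 4 groups of genes, and columns are libraries grouped by cell line and stage. Colors end at 3 in either direction, which SCD passes in the 3 BPH-1 metastasis-derived libraries and ELOVL6 in bone R072. The fatty acid genes at the bottom are low in those 3 libraries, and most sterol genes are high in RWPE-1.

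BPH-1 metastasis-derived lines differed from their C-Raf parental cells chiefly in the fatty acid genes. Of the 8 fatty acid genes, 6 fell (ACLY, FASN, SCD, ELOVL6, FADS1 and FADS2) and 0 rose, with a median log2 fold change of -2.08 against 0.07 for all genes tested. SREBF1, SREBF2 and SCAP also fell. HMGCS1, near the start of the cholesterol route, rose 2.1-fold, and SC5D, a sterol desaturase near its end, rose 1.99-fold. Over the 31 members, 14 passed (45.2%), where 37.7% of the 13456 genes tested did. Of these 12 fell (38.7%, against 16.8% of genes) and 2 rose (6.45%, against 21% of genes) (3 libraries against 3, edgeR quasi-likelihood test, Benjamini-Hochberg adjusted p below 0.05).

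SCD, the desaturase that makes monounsaturated fatty acids, was at 1810, 1877 and 1792 CPM in BPH-1 vector control cells and at 1692, 1614 and 1676 CPM in C-Raf parental cells. In the metastasis-derived lines it was at 164 CPM in bone R069, 159 in bone R072 and 202 in thymus R075. All 3 lines lay far below both other groups. RN7SL1 took 4.60% to 30.3% of the reads of these lines, and its part in the SCD level was not tested. SCD fell by 3.20 on the log2 scale, a 9.19-fold decrease (SE 0.21, adjusted p = 0.000994, edgeR quasi-likelihood test). The means were 1661 ± 41.1 CPM in C-Raf parental cells and 175 ± 23.4 in metastasis-derived lines (SD, n = 3 each).

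FASN, the fatty acid synthase itself, was at 1313, 1178 and 1254 CPM in C-Raf parental cells and at 249, 333 and 173 CPM in the 3 metastasis-derived lines. Its vector control values of 1244, 1252 and 1205 CPM lay within the parental range. FASN fell 4.78-fold (log2 fold change -2.26, SE 0.30, adjusted p = 0.00348, edgeR). The highest metastasis-derived library was below the lowest parental library by a wide margin, but the 3 lines spread more than they did for SCD.

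ELOVL6, which lengthens palmitate, was at 46.2, 44.4 and 43.3 CPM in C-Raf parental cells and at 10, 2.45 and 8.86 CPM in metastasis-derived lines R069, R072 and R075. The desaturases of polyunsaturated fatty acids followed. FADS1 was at 233, 223 and 229 CPM in C-Raf parental cells and at 40.6, 25.1 and 56.4 CPM in the same 3 lines. FADS2 was at 26.1, 25.1 and 24.5 CPM in C-Raf parental cells and at 5.35, 7.89 and 6.24 CPM in the metastasis-derived lines. None of these groups overlapped, and the share of all genes without overlap is not given here. By the edgeR quasi-likelihood test ELOVL6 fell 6-fold (log2 fold change -2.58, SE 0.48, adjusted p = 0.00923), FADS1 5.43-fold (-2.44, SE 0.31, adjusted p = 0.00308) and FADS2 3.77-fold (-1.91, SE 0.21, adjusted p = 0.00251). The order among the 3 lines was not shared: bone R072 was lowest for ELOVL6 and FADS1 and highest for FADS2.

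The enzymes that supply acetyl-CoA and malonyl-CoA moved less. ACLY, which makes cytosolic acetyl-CoA from citrate, fell 2.6-fold (log2 fold change -1.38, SE 0.17, adjusted p = 0.00305). ACACA, acetyl-CoA carboxylase, had a log2 fold change of -0.76 (SE 0.32) that missed the threshold (adjusted p = 0.109), although its 3 metastasis-derived values of 144, 170 and 74.9 CPM all lay below the parental values of 238, 214 and 230. ACSS2, which makes acetyl-CoA from acetate, had a log2 fold change of -0.29 (SE 0.29, adjusted p = 0.458), and its groups overlapped.

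Among the regulators, SREBF1 was at 209, 203 and 203 CPM in C-Raf parental cells and at 39.1, 74.6 and 33.2 CPM in metastasis-derived lines R069, R072 and R075. SREBF2 was at 188, 173 and 181 CPM in parental cells and at 73.5, 90.6 and 76.5 CPM in those lines. For both, bone R072 was the highest of the 3 lines and still below the lowest parental library. SREBF1 fell 4.03-fold (log2 fold change -2.01, SE 0.34, adjusted p = 0.00708) and SREBF2 2.18-fold (-1.12, SE 0.17, adjusted p = 0.00522, edgeR). SCAP, the escort of both proteins, fell 2.04-fold (-1.03, SE 0.15, adjusted p = 0.00475). INSIG1 was at 82.3, 85.7 and 83.4 CPM in parental cells and at 57.2, 80 and 87.4 CPM in the lines, so its groups overlapped (log2 fold change -0.11, SE 0.20, adjusted p = 0.677). STARD4, a carrier that moves cholesterol between membranes, also overlapped (0.09, SE 0.24, adjusted p = 0.784).

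HMGCS1, the cytosolic synthase of HMG-CoA, was at 157, 149 and 148 CPM in vector control cells, 125, 125 and 127 CPM in C-Raf parental cells and 248, 253 and 265 CPM in metastasis-derived lines. After TMM scaling the lines agreed closely and lay above both other groups. That scaling raised levels in bone R072 relative to bone R069. The 31 members held 30793 of 20574528 protein-coding counts in R072 (2430 CPM) and 66484 of 28136924 in R069 (2169 CPM). In C-Raf parental replicate 1 they held 196418 of 28484809 (6105 CPM), so scaling lowered levels there and raised them in R072. HMGCS1 levels without such scaling were not compared. The agreement of the lines and the size of the rise therefore hold for scaled levels only, as does the rise of SC5D below. HMGCS1 rose by 1.07 on the log2 scale (SE 0.16, adjusted p = 0.00465). SC5D rose by 0.99 (SE 0.30, adjusted p = 0.0415), with a wide spread of 80.9, 47.8 and 111 CPM over R069, R072 and R075 against 40.8 to 42.4 CPM in parental cells.

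The rest of the cholesterol route was mixed. From acetoacetyl-CoA to squalene, PMVK, the second kinase of the mevalonate route, fell 2.08-fold and FDFT1, squalene synthase, 1.61-fold (adjusted p = 0.00807 and 0.0252, edgeR), while ACAT2, MVK, MVD, IDI1 and FDPS did not pass. From squalene to cholesterol, DHCR7, the reductase of the last steps, fell 3.86-fold (log2 fold change -1.95, SE 0.18, adjusted p = 0.00162). SQLE (0.58, SE 0.29), MSMO1 (0.55, SE 0.24), LSS (-0.92, SE 0.33), CYP51A1, TM7SF2, NSDHL, HSD17B7 and EBP did not pass the test. The median log2 fold change of the 10 genes from squalene to cholesterol was 0.08, next to 0.07 over all genes.

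**Figure D2:**
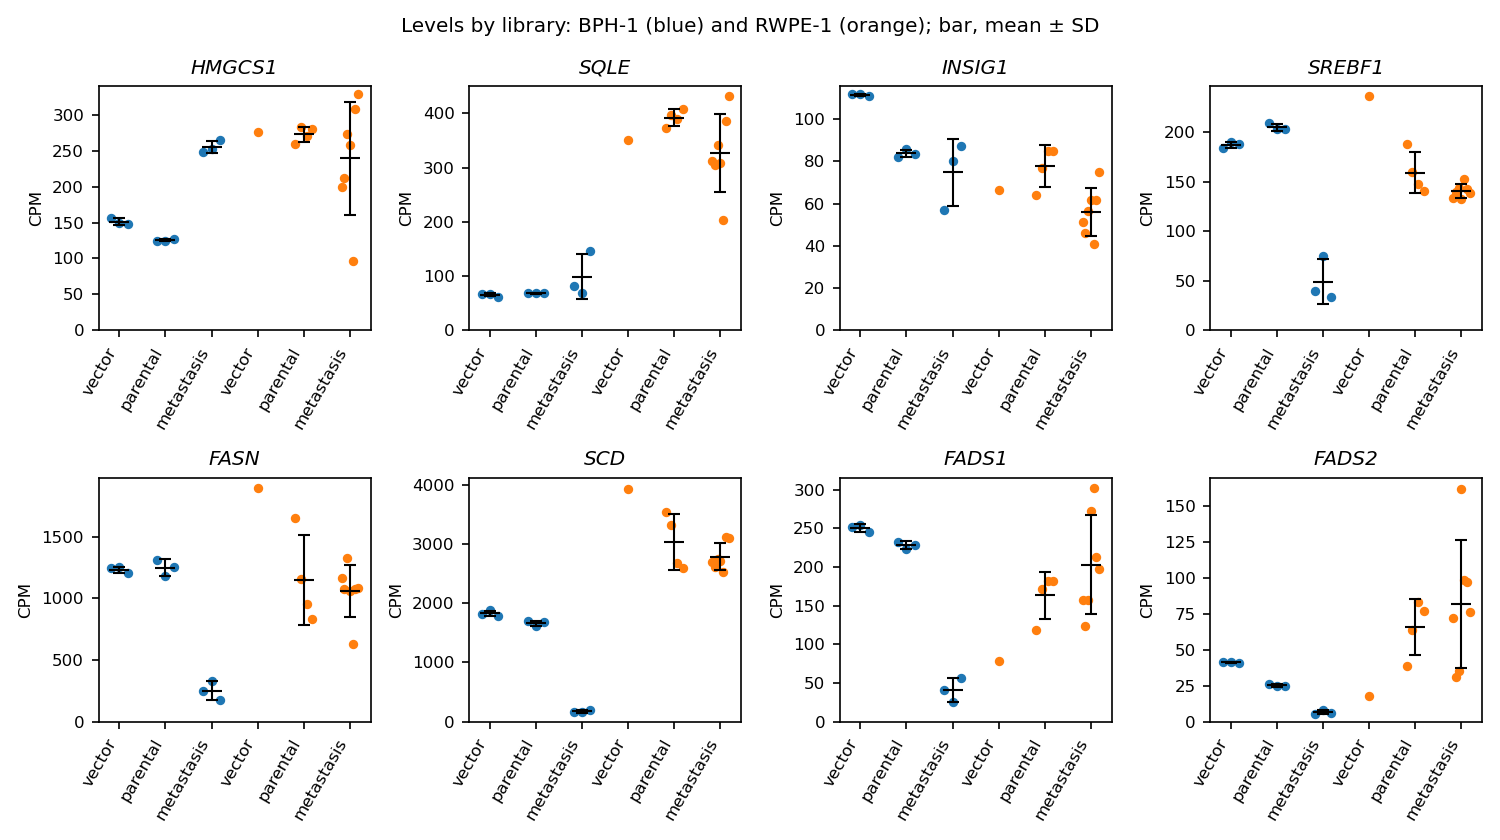
CPM of 8 members in each of 21 libraries, one panel per gene with its own axis from 0; points are libraries, and bars give the mean ± SD of each group of more than 1 library. SCD, FASN, FADS1 and FADS2 are lowest in BPH-1 metastasis-derived lines, where HMGCS1 lies between 248 and 265 CPM, above the other BPH-1 libraries.

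Levels of these genes can also be set against each other within a library, which removes the scaling between libraries. The ratio of SCD counts to HMGCS1 counts was 11.6, 12.6 and 12.1 in BPH-1 vector control cells, 13.5, 12.9 and 13.2 in C-Raf parental cells, and 0.66, 0.628 and 0.762 in metastasis-derived lines R069, R072 and R075. In RWPE-1 the ratio was 14.2 in the vector control, 9.27 to 13.7 in C-Raf parental cells and 9.43 to 26.2 in metastasis-derived lines. In the other 18 libraries the ratio was never below 9.27. The ratio of SREBF1 to SREBF2 was 1.11, 1.17 and 1.12 in BPH-1 C-Raf parental cells and 0.532, 0.823 and 0.434 in the metastasis-derived lines, against 0.759 to 1.12 over all RWPE-1 libraries.

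**Figure D3:**
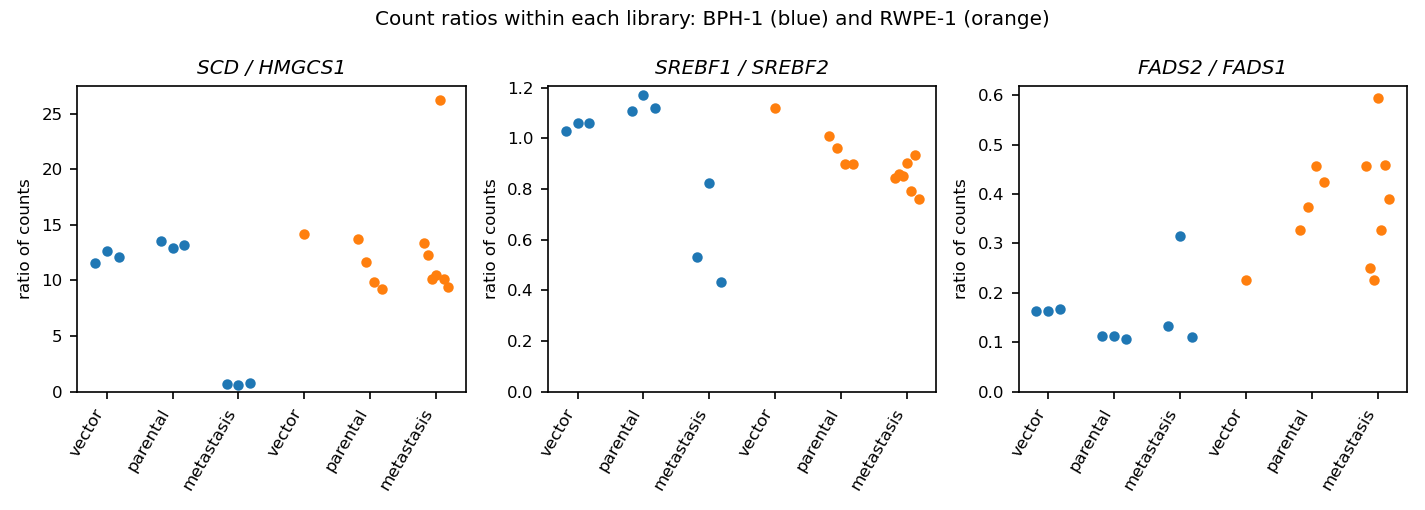
Ratios of raw counts of gene pairs within each of 21 libraries, by cell line and stage, one point per library, each axis starting at 0. The SCD to HMGCS1 ratio of the 3 BPH-1 metastasis-derived lines lies between 0.628 and 0.762, and the RWPE-1 point at 26.2 is Bone4.

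The fall of the fatty acid genes in BPH-1 stood when single libraries were left out. SCD, FASN, ELOVL6, FADS1, FADS2, ACLY, DHCR7, SREBF1, SREBF2, SCAP and HMGCS1 passed in all 6 fits that each left out 1 library, with log2 fold changes of -3.31 to -3.15 for SCD, -2.53 to -2.05 for FASN and 1.04 to 1.09 for HMGCS1 (highest adjusted p = 0.0164, 0.0282 and 0.049). PMVK, FDFT1 and SC5D passed in 3, 2 and 1 of the 6 fits. Without bone R072, the line with the most RN7SL1, 22 members passed, 18 lower and 4 higher (SQLE and MSMO1 added to HMGCS1 and SC5D). Over all genes that fit called 8313, against 5079 in the main fit, so the count of members rose together with that of all genes. With the 3 libraries of low depth added, 7 members passed, all lower (DHCR7, SREBF1, ACLY, FASN, SCD, ELOVL6 and FADS1), and HMGCS1 no longer did (log2 fold change 0.30, SE 0.73, adjusted p = 0.804). Over all genes 2095 passed with these libraries.

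Other values moved with this comparison. The summed basal markers (TP63, KRT14, KRT17 and ITGA6) were at 8296 to 11829 CPM in the BPH-1 metastasis-derived lines and 1978 to 2042 in C-Raf parental cells. KRT14 (2906 to 6328 CPM against 297 to 308) and KRT17 (2385 to 4689 against 505 to 532) led this sum. TP63 was at 195 to 336 CPM against 186 to 192, and ITGA6 at 489 to 2289 CPM reached both below and above the parental 956 to 1022. The 8 fibroblast markers summed to 49.2 to 70.5 CPM against 11.3 to 11.6, led by COL1A1 at 46.5 to 67.7 CPM. The 4 endothelial markers summed to 2.38 to 39.1 CPM against 1.46 to 1.54, of which VWF made up to 38.4 while KDR was at most 0.0355. The 5 adipocyte markers summed to 6.52 to 16.1 CPM against 0.0622 to 0.171, nearly all of it FABP4, with CIDEC and LEP at 0 counts and ADIPOQ at most 0.0326 CPM. The 7 haematopoietic markers summed to 6 to 21.8 CPM against 24.3 to 27.1. The 6 epithelial markers summed to 4685 to 6144 CPM against 5654 to 5800. Among them KRT5 was at 3676 to 4875 CPM against 2667 to 2731, CDH1 overlapped the parental range of 318 to 322 CPM, and KRT8, KRT18, KRT19 and EPCAM lay below the parental range in every line (KRT18 at 85.2 to 156 CPM against 833 to 851). The role of these markers and of the RN7SL1 reads in the lipid gene levels was not tested, and in BPH-1 table and stage cannot be told apart. Fewer cells that express a gene and less RNA per cell cannot be told apart in such bulk libraries.

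In RWPE-1, the members did not differ detectably between metastasis-derived lines and the C-Raf cells they came from. Of the 31 members, 0 rose and 0 fell, where 0.0986% of 13191 genes passed (7 libraries against 4, edgeR; DESeq2 also called 0 members). At an unadjusted p below 0.05, 2 members were lower and 0 higher (6.45% of members, 7.85% of genes), INSIG1 (log2 fold change -0.46, SE 0.15, adjusted p = 0.378) and SREBF1 (-0.17, SE 0.08, adjusted p = 0.621). The median log2 fold change was -0.06 over the members and 0.01 over all genes.

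SCD was at 3547, 3320, 2682 and 2591 CPM in the 4 RWPE-1 C-Raf parental libraries and at 2531 to 3121 CPM (median 2704) in the 7 metastasis-derived lines, and 3933 in the vector control. FASN was at 1656, 1156, 955 and 832 CPM in the parental libraries and at 633 to 1332 CPM (median 1079) in the lines. HMGCS1 was at 260, 283, 271 and 280 CPM in the parental libraries and at 96.7 to 329 CPM (median 259) in the lines. For each of these genes the groups overlapped. INSIG1 was at 64.1, 76.7, 85.2 and 85 CPM in parental libraries and at 40.9 to 75 CPM (median 56.6) in the lines, with only the parental library of the first table inside the range of the lines.

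SREBF1 was at 188, 160, 148 and 140 CPM in the RWPE-1 parental libraries and at 132 to 153 CPM (median 139) in the lines. SREBF2 was at 187, 166, 165 and 156 CPM and at 146 to 193 CPM (median 161). Both groups overlapped for each gene. The RWPE-1 libraries came in 2 tables, and the first parental library, in the table of the vector control, had the highest FASN and SCD of the 4 and the lowest FADS1. Within the table with 3 parental and 4 metastasis-derived libraries, the log2 fold change of SCD was 0.00 (SE 0.15) and that of FASN -0.02 (SE 0.21), and within the other table (1 against 3, no test) they were -0.39 and -0.47. The sign was the same in both tables for 15 of the 31 members.

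The sterol genes had one RWPE-1 line apart from the rest. Bone4 had the lowest level of the 7 metastasis-derived lines for 21 of the 31 members, where it was lowest for 25.3% of 15237 genes, and among the 10 genes from squalene to cholesterol it was lowest for 9. HMGCS1 was at 96.7 CPM in Bone4 and at 200 to 329 in the other 6 lines. MSMO1, a methylsterol oxidase, was at 72.9 CPM there and at 148 to 196 in the others. Both values lay outside the range of the other RWPE-1 libraries, parental and vector control included. SREBF2 was not lowest in Bone4 but highest, at 193 CPM, and SCD was at 2531 CPM, next to 2614 in LN1B. Without Bone4, 0 members passed either, and the log2 fold change of HMGCS1 was -0.04 (SE 0.13) in place of -0.18 (SE 0.25). Bone4 was also the highest line for 8 members, and for 28.6% of all genes.

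**Figure D4:**
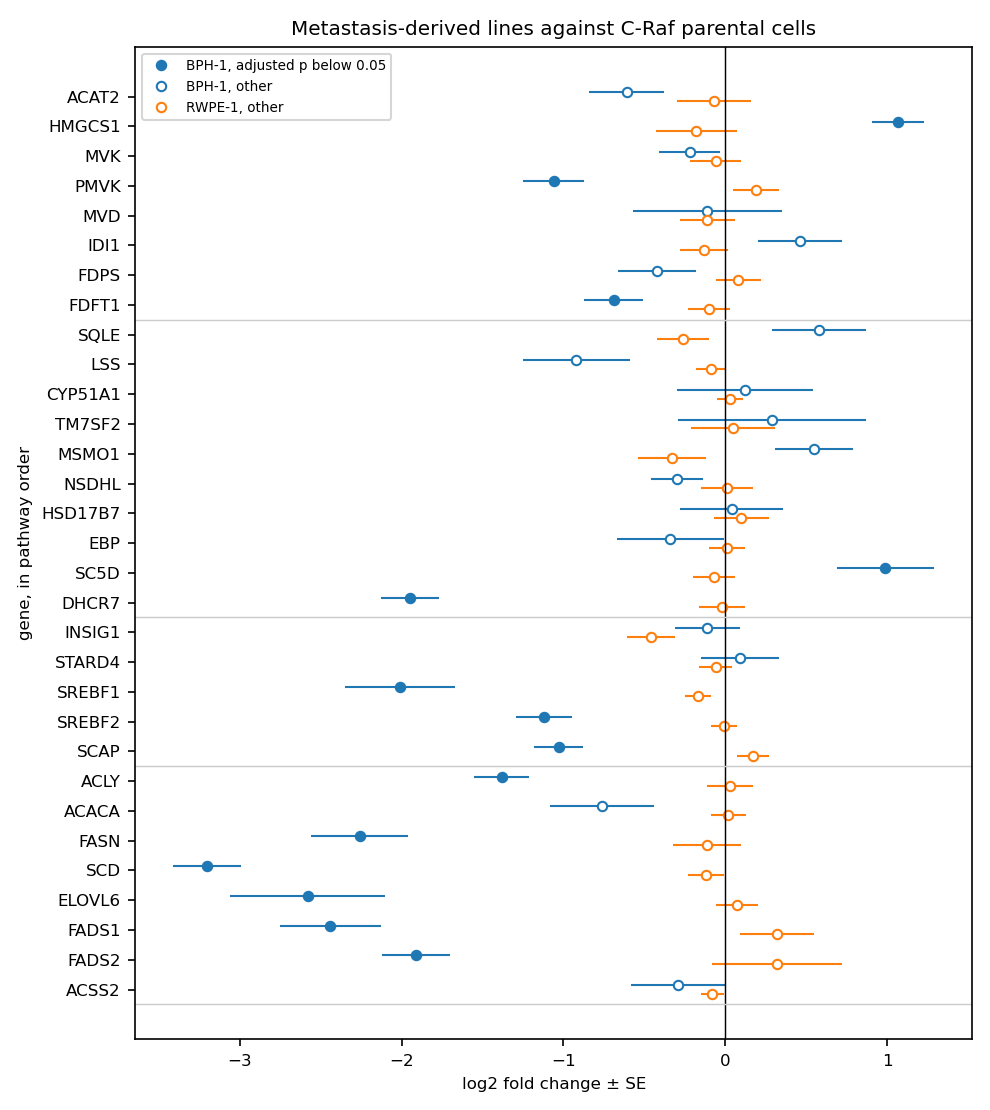
Log2 fold change ± SE of each member in metastasis-derived lines against parental cells, for BPH-1 (3 against 3 libraries) and RWPE-1 (7 against 4); filled points have an adjusted p below 0.05 by edgeR. Of the 8 BPH-1 points of fatty acid genes 6 are filled and lie left of all RWPE-1 points, down to -3.20 for SCD, while ACACA (-0.76) and ACSS2 (-0.29) are open and RWPE-1 points stay between -0.46 and 0.32.

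The difference between the cell lines in this metastasis effect was itself tested, with 17 libraries in one fit. It passed for 16 of the 31 members (51.6%), against 44.5% of 14268 genes. The effect was lower in BPH-1 for 14 (45.2%) and higher for 2 (6.45%), against 21% and 23.5% of genes. Of the 8 fatty acid genes, 7 were lower. SCD differed most, with a log2 difference of -3.13 (SE 0.21, adjusted p = 1.2e-07, edgeR interaction term), followed by FADS1 at -2.80 (SE 0.40, adjusted p = 5.54e-05), ELOVL6 at -2.68 (SE 0.40) and FADS2 at -2.29 (SE 0.60, adjusted p = 0.00549). HMGCS1 differed by 1.21 (SE 0.36, adjusted p = 0.0133) and SC5D by 1.03 (SE 0.30, adjusted p = 0.0104). With the libraries of low depth added, 10 members passed, all lower, and FADS2 and HMGCS1 did not (adjusted p = 0.119 and 0.454). Over all genes 4177 passed there, against 6353 without those libraries. This test uses the BPH-1 and RWPE-1 libraries of the comparisons above and shares their values.

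The cell lines were also compared with each other at the C-Raf parental stage. Of the 31 members 22 (71%) differed, a share close to the 74% of all genes. C-Raf parental RWPE-1 cells (4 libraries) had higher levels than BPH-1 (3) for 15 of the 31 members (48.4%) and lower for 7 (22.6%), against 38.0% and 36.0% of 13534 genes. From acetoacetyl-CoA to squalene, 5 of 8 were higher, and from squalene to cholesterol 5 of 10. Among the regulators only STARD4 was higher, and SREBF1 and SCAP were lower.

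SQLE, squalene epoxidase, was at 67.8, 67.7 and 68.9 CPM in BPH-1 parental cells and at 373, 398, 390 and 409 CPM in RWPE-1 parental cells. IDI1, which isomerizes isopentenyl diphosphate, was at 27.9, 32.7 and 27.7 CPM in BPH-1 and at 162, 166, 139 and 147 CPM in RWPE-1. STARD4 was at 34.2, 35.1 and 35.7 CPM in BPH-1 and at 156, 154, 192 and 191 CPM in RWPE-1. None of these groups came near each other. The differences were 5.77-fold for SQLE (log2 2.53, SE 0.07, adjusted p = 2.09e-07), 5.2-fold for IDI1 (2.38, SE 0.09, adjusted p = 9.31e-07) and 4.95-fold for STARD4 (2.31, SE 0.11, adjusted p = 1.96e-06, edgeR). ACSS2 was 4.81-fold and MSMO1 3.88-fold higher in RWPE-1.

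In the opposite direction, TM7SF2, a sterol reductase, was at 15, 13 and 12.7 CPM in BPH-1 parental cells and at 2.83, 2.02, 2.75 and 2.47 CPM in RWPE-1, a 5.39-fold lower level (log2 -2.43, SE 0.14, adjusted p = 4.4e-06, edgeR). DHCR7 was 2.31-fold and SCAP 1.97-fold lower in RWPE-1. The transcription factors differed little: SREBF2 had a log2 difference of -0.10 (SE 0.07, adjusted p = 0.24) and SREBF1 of -0.37 (SE 0.10, adjusted p = 0.0106). When vector control libraries were added, SREBF1 did not pass (-0.15, SE 0.12, adjusted p = 0.268). SCD was 1.83-fold, ELOVL6 2.21-fold and FADS2 2.61-fold higher in RWPE-1, FADS1 was 1.4-fold lower, and FASN did not pass (log2 -0.12, SE 0.22, adjusted p = 0.637). Without RWPE-1 C-Raf parental replicate 1, FASN passed as lower in RWPE-1 (-0.35, SE 0.12, adjusted p = 0.0339, edgeR). SREBF2 did so too in that fit (-0.16, SE 0.06, adjusted p = 0.0352).

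**Figure D5:**
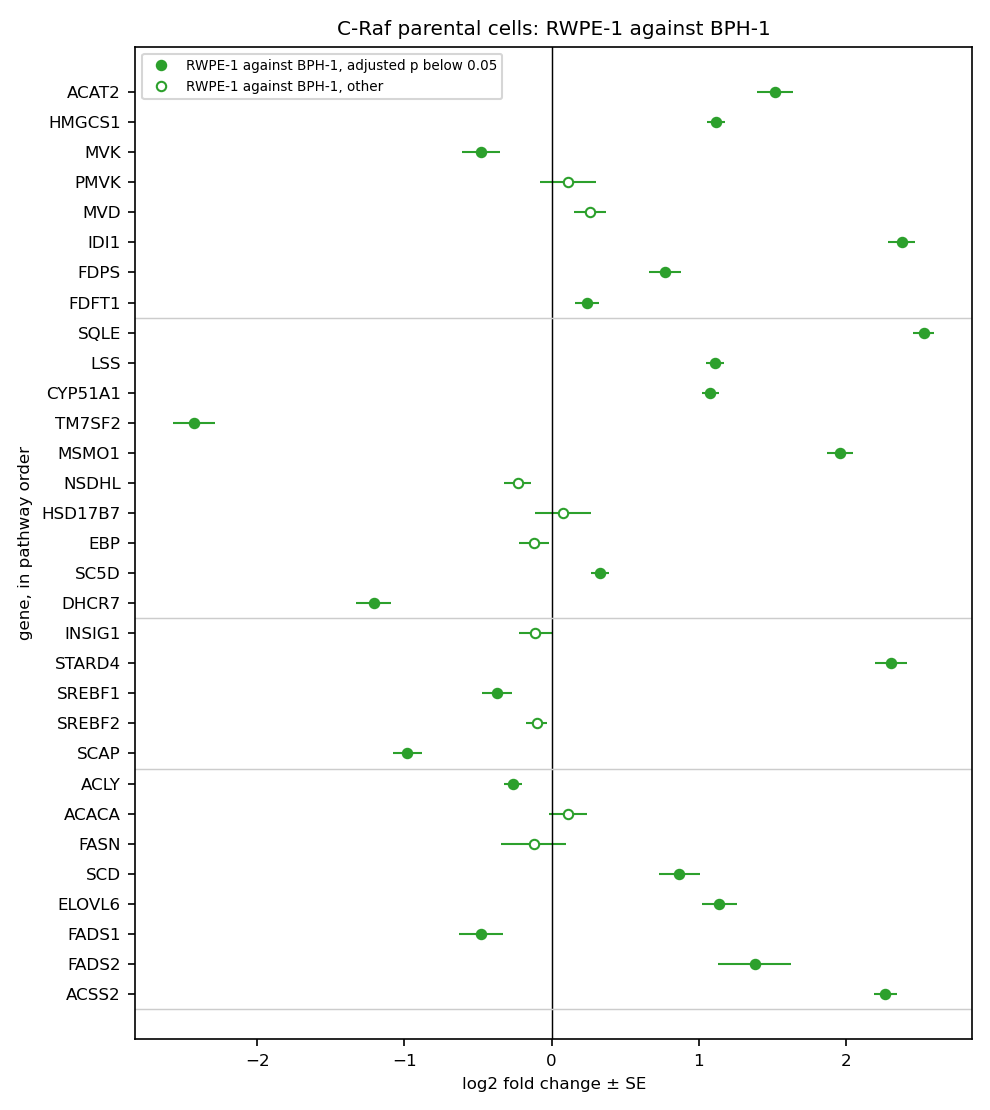
Log2 fold change ± SE of each member between C-Raf parental RWPE-1 (4 libraries) and BPH-1 (3 libraries), in pathway order; filled points have an adjusted p below 0.05 by edgeR. SQLE, IDI1, STARD4 and ACSS2 lie beyond 2 to the right and TM7SF2 beyond -2 to the left.

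C-Raf overexpression alone moved the members little in BPH-1. C-Raf parental cells had lower levels than vector control cells for 12 members (38.7%) and higher for 3 (9.68%), against 29.4% and 30.4% of 13234 genes (3 libraries against 3, edgeR). The median log2 fold change was -0.02. The libraries of this comparison varied by only 2.43% between replicates (the common biological coefficient of variation of edgeR), so changes of a few percent passed the test, and 59.8% of all genes did.

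TM7SF2 was at 21.9, 23.5 and 23.6 CPM in vector control cells against 15, 13 and 12.7 in C-Raf parental cells, a 1.71-fold decrease (log2 fold change -0.77, SE 0.06, adjusted p = 6.16e-12). FADS2 was at 41.5, 41.7 and 40.9 CPM against 26.1, 25.1 and 24.5, a 1.66-fold decrease (-0.73, SE 0.04, adjusted p = 7.39e-15). INSIG1 was at 112, 112 and 111 CPM against 82.3, 85.7 and 83.4 (-0.43, SE 0.03, adjusted p = 1.11e-12). All 3 genes passed the test, in a comparison where 59.8% of all genes did. STARD4 fell from 45.4, 47.1 and 44.4 CPM to 34.2, 35.1 and 35.7 (-0.40, SE 0.04, adjusted p = 1.12e-09, edgeR). MVK, ACAT2, HMGCS1, LSS, MVD, SCD, FADS1 and DHCR7 fell by between 0.13 and 0.38 on the log2 scale, and PMVK, SREBF1 and FDPS rose by 0.17, 0.11 and 0.07. SREBF1 passed in all 6 fits that left out 1 library, PMVK in 3 and FDPS in 2, and with DESeq2 or without vector control replicate 3 the members that rose numbered 1 in place of 3. SREBF2 had a log2 fold change of 0.00 (SE 0.03), and its vector control values of 178, 179 and 178 CPM lay within the parental range of 173 to 188.

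In RWPE-1 a single vector control library allowed no test. FADS2 was at 17.8 CPM in that library and at 38.7, 64, 83.1 and 77.1 CPM in the 4 C-Raf parental libraries, a mean log2 difference of 1.83. FADS1 was at 78.5 CPM in the vector control and at 118, 171, 182 and 182 CPM in the parental libraries, a log2 difference of 1.04. These were the 2 members past 2-fold (9.60% of 13467 genes were higher by that much and 3.13% lower), and FADS2 had the opposite direction in BPH-1. Against the parental library of the same table alone, the differences were 1.13 for FADS2 and 0.59 for FADS1. FASN and SREBF1 differed by -0.77 and -0.58, and by -0.19 and -0.32 against the library of the same table. In the metastasis-derived lines FADS2 ranged from 31.2 to 162 CPM (median 76.6) and FADS1 from 124 to 302 (median 197), with the highest FADS2 in Spine2 and the highest FADS1 in Bone4. FADS1 and FADS2 lie on opposite strands of chromosome 11 and share 490 exon bases (4.79% and 4.44% of their exons), and the strand setting of the counting is not given in the sources used here, so a small share of their reads may be exchanged.

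Fits over both cell lines with 21 libraries called 0 members in either comparison. For C-Raf parental cells against vector control, 0.814% of 15237 genes passed (DESeq2 also called 0 members) and 1 member (MVK, log2 fold change -0.45, SE 0.15) had an unadjusted p below 0.05 (3.23% of members, 9.45% of genes). For metastasis-derived lines against parental cells, 2.50% of genes passed and 10 members had an unadjusted p below 0.05, all lower (32.3% of members, 10.7% of genes lower), among them SCD (-1.15, SE 0.40, adjusted p = 0.11) and SREBF1 (-0.87, SE 0.25, adjusted p = 0.0637). DESeq2 called 3 of them (SREBF1, SCD and FASN), and 938 genes over all. The fit with vector control and C-Raf parental libraries alone called 2 members in the first comparison, both lower, and 1649 genes over all. These pooled values average cell lines whose effects differed in the test above.

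Further lipid genes outside the 31 were followed as lists. In BPH-1 metastasis-derived lines against parental cells, 2 of 16 other sterol and isoprenoid genes fell and 0 rose, where 16.8% of all genes fell and 21% rose. SCARB1, a lipoprotein receptor, was among them at -2.51 (SE 0.29, adjusted p = 0.00258). The sterol list thus held a share of falls (12.5%) below that of all genes. Of 7 genes of the LXR receptors and sterol export, 4 fell and 0 rose, among them LPCAT3 (-1.56), NR1H3, which encodes LXR alpha (-1.55), and the transporter ABCG1 (-1.21). Of 20 other fatty acid and glycerolipid genes 4 fell, among them the mitochondrial citrate carrier SLC25A1 (-2.04, SE 0.16, adjusted p = 0.00127) and ACSL3 (-1.24), and 1 rose, CPT1A, which brings fatty acids into mitochondria for oxidation (1.21, SE 0.21, adjusted p = 0.00712). The falls were 57.1% of the LXR list and 20% of the fatty acid list. The medians of the 3 lists were -0.43, -1.21 and -0.44, against 0.07 over all genes.

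The same lists held 0 called genes in RWPE-1 metastasis-derived lines (edgeR), with 1 of 16, 1 of 6 and 4 of 21 at an unadjusted p below 0.05, where 7.85% of all genes were. Between the cell lines' C-Raf parental cells, 8 of the 16 other sterol genes were higher in RWPE-1 and 5 lower, 0 and 4 of the 7 LXR genes, and 8 and 9 of 21 other fatty acid genes, against 38.0% higher and 36.0% lower over all genes. PLIN2, the coat protein of lipid droplets, was at 17.5 to 21.1 CPM in RWPE-1 C-Raf parental libraries and held 0 to 2 counts in each BPH-1 C-Raf parental library. With C-Raf in BPH-1, 6 of the other sterol genes rose and 6 fell, 2 and 4 of the LXR genes, and 11 and 7 of 20 other fatty acid genes, against 30.4% and 29.4% over all genes. The cholesterol exporter ABCA1 rose by 1.11 (SE 0.05, adjusted p = 2.03e-17) and its relative ABCG1 by 0.84 (SE 0.08, same test). In the test of the difference between the cell lines' metastasis effects, SCARB1 (-2.80, SE 0.29), SLC25A1 (-2.01, SE 0.15) and LPCAT3 (-1.67, SE 0.28) were lower in BPH-1. VLDLR, a lipoprotein receptor, was higher (2.25, SE 0.78). Its levels spread widely, from 8.68 to 58.3 CPM in the BPH-1 metastasis-derived lines against 5.84 to 7.06 in BPH-1 C-Raf parental cells.

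Over the 21 libraries, the 5 protein-coding genes whose log2 CPM followed SCD most closely were LAGE3, NME4, ZDHHC16, TBC1D5 and AGPAT1 (Pearson r from 0.988 to 0.982), and ELOVL6 was the closest member (r = 0.96, rank 55 of 15236). For HMGCS1 the closest genes included VAMP8, AREL1, RHCG and RNF8 (r from 0.864 to 0.853), and MSMO1 was the closest member (r = 0.778, rank 41). SCD and HMGCS1 themselves had r = -0.0182. The libraries share cell line, table and, in BPH-1 lines, RN7SL1 content, so these values describe the 21 libraries only.

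Some members are counted with uncertainty because their exons overlap others. CYP51A1 shares 79.4% of its exon bases with AC000120.2, annotated as protein-coding on the same strand, and ACAT2 shares 26.5% with SOD2 and 9.23% with TCP1 on the opposite strand. Also on the opposite strand, HMGCS1 shares 15% with AC114947.2, FDPS 18.6% with RUSC1-AS1, IDI1 14.8% with IDI2-AS1 and SREBF1 6.92% with RAI1. Several other members share smaller parts. FDPS has 8 pseudogenes named after it, with at most 52 counts in any library for a single pseudogene.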

How the data were processed

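RNA was sequenced in 24 libraries, and the authors deposited 4 tables of expected counts made by RSEM, estimated read counts per gene that need not be whole and carry no normalization. Per the labels, reads were processed with cutadapt, FastQC, STAR and RSEM on hg38, and versions are not given in the sources used here. All 24 columns matched a sample. Of 60448 symbols, 36628 matched GENCODE version 29 and 884 more an older symbol, and 19220 were protein-coding. The deposited expected counts were rounded to whole numbers, filtered by edgeR's filterByExpr, scaled by TMM and fitted with the quasi-likelihood test of edgeR 4.0.16 (R 4.3.3) over all protein-coding genes kept. Fold changes carry a standard error derived from the F statistic, and calls use a Benjamini-Hochberg adjusted p below 0.05. Each comparison was fitted to the libraries of its groups, and fits over both lines had terms for cell line and stage. The 3 libraries with few protein-coding counts were left out of the main fits. CPM levels use the protein-coding counts.

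The members and the other gene lists were chosen with earlier results of these data known. Values in single libraries are given for HMGCS1, SCD, SREBF1, SREBF2, INSIG1 and FASN, and in each tested comparison for the 4 called members with the largest change among those of at least 1 CPM on average. Other lists give up to 3 called genes per comparison. ACACA, ACLY, DHCR7, SC5D, MSMO1, PMVK, FDFT1, the within-library ratios and Bone4 were singled out after their values were seen. A longer form of the sterol regulatory element is not reported, since each match to it holds the form searched. The fits were tested on simulated counts with known changes. Alternatives were DESeq2 1.42.0, RLE size factors, other filters, all genes of the tables, a replicate block, each library left out in turn, the libraries of low depth added, and a term for the RWPE-1 table. The log2 fold changes within the smaller RWPE-1 table were added after seeing the data. RN7SL1 shares carry Wilson intervals, which cover counting error only. Results that need certain genes are not reported here.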

Additional observations from a re-analysis of the deposited data

Results flagged for a closer look

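Levels of 10 gene and library pairs lay far from the rest of their group by Dixon's test at its 95% critical value, of 62 groups tested, where chance gives about 1 in 20. Of these, 9 were low values of the RWPE-1 metastasis-derived line Bone4 among 7 lines. HMGCS1 was at 96.7 CPM, IDI1 at 87.1, FDFT1 at 145 and MSMO1 at 72.9 CPM. NSDHL was at 19.9 CPM, DHCR7 at 81.1, ACLY at 233, FASN at 633 and ELOVL6 at 73 CPM. Bone4 was set apart as low in the same way for 5.88% of 15237 genes and as high for 4.84%. The remaining value was FADS1 at 118 CPM in the RWPE-1 C-Raf parental library of the vector control's table, below the 171 to 182 of the other 3.

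The metastasis effect differed between BPH-1 and RWPE-1 for 16 of 31 members by the edgeR interaction term. The log2 difference (BPH-1 minus RWPE-1) was -3.13 for SCD, -2.80 for FADS1, -2.68 for ELOVL6, -2.29 for FADS2, -2.20 for FASN, -1.45 for ACLY and -0.83 for ACACA. It was -1.90 for SREBF1, -1.25 for SCAP and -1.15 for SREBF2. Among the sterol genes it was -1.97 for DHCR7, -1.29 for PMVK, -0.89 for LSS and -0.63 for FDFT1, and above 0 for HMGCS1 (1.21) and SC5D (1.03). Cell line, medium and table cannot be told apart in this difference.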

How the results depend on the processing

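Over 973 combinations of a named gene and an alternative, 922 kept direction and side of the threshold, 11 newly passed, 8 no longer passed and 32 turned direction, none of which passed with either sign. With C-Raf in BPH-1, FASN (-0.00) was at 0.00 with no filter on low counts, 0.01 with all genes of the tables and -0.03 to 0.04 with a library left out, and SREBF2 (0.00) at -0.01 with at least 10 counts in every library and -0.02 to 0.03 with a library left out. In metastasis-derived lines, leaving out a library gave -0.23 to 0.05 for INSIG1 of BPH-1 (-0.11), -0.23 to 0.12 for FASN of RWPE-1 (-0.11) and -0.05 to 0.04 for SREBF2 of RWPE-1 (-0.01). Within 1 table, SREBF2 was at 0.05 and SCD (-0.12) at 0.00, and with the libraries of low depth the INSIG1 difference between the lines (0.30) was at -0.06. Between the cell lines, FASN (-0.12) was at 0.11 and SREBF2 (-0.10) at 0.00 with vector controls added, and FASN at -0.35 to 0.00 with a library left out. HMGCS1 with C-Raf over both lines (0.00) was at -0.02 with all genes of the tables, -0.07 with the libraries of low depth, -0.19 with vector and parental libraries alone and -0.04 to 0.15 with a library left out. With C-Raf in RWPE-1, INSIG1 (0.22) was at -0.05 with the library of the same table alone, and HMGCS1 (-0.01) at -0.03 to 0.01 with a library left out. The count of members called was 7 in BPH-1 metastasis-derived against C-Raf parental cells with the 3 libraries of low depth added (main count 14), and 10 in the difference between the lines (main count 16). In the fits over both lines, vector and parental libraries alone gave 2 members (main count 0), and the metastasis comparison gave 3 with DESeq2, 2 with all genes of the tables and 1 with the libraries of low depth (main count 0). For RWPE-1 C-Raf against vector control, the library of the same table alone gave 1 member past 2-fold (main count 2). Leaving out each library in turn gave 13 to 16 members for C-Raf in BPH-1, 11 to 22 for its metastasis-derived lines (22 without bone R072), 0 to 0 for those of RWPE-1, 20 to 25 between the cell lines, 16 to 20 for the difference, 0 to 0 and 0 to 1 in the fits over both lines (1 without RWPE-1 C-Raf parental replicate 3 or 4), and 1 to 2 for RWPE-1 C-Raf (1 without either of the same replicates). The cause was not tested.

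Over all genes, the BPH-1 metastasis comparison called 5079 genes, 1957 to 8313 with a library left out (8313 without bone R072, 1957, 2016 and 2096 without C-Raf parental replicates 1, 2 and 3) and 2095 with the libraries of low depth. The difference between the lines called 6353, and 4177 with those libraries. The RWPE-1 comparison called 13 genes, 168 with DESeq2, 5 with at least 10 counts in every library, 20 with all genes of the tables, 2 within 1 table, and 4 to 40 with a library left out (40 without Bone4). Over both lines, C-Raf called 124 genes, 458 with DESeq2, 68 with the stricter filter, 37 with the libraries of low depth, 1649 without the metastasis-derived lines and 38 to 287 with a library left out. The metastasis comparison called 381, 938 with DESeq2, 17 with the stricter filter, 1781 with all genes of the tables, 168 without vector controls and 98 to 478 with a library left out.

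The replicate numbers that BPH-1 C-Raf parental and vector libraries share did not pair them: the deviations of same-numbered libraries from their group means correlated at 0.00811, 0.00996 and -0.0223. With the replicate number as a block, 14 members were called in place of 15.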
